A study of Homo sapiens with 8 samples.

Results

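Complement components, receptors and regulators were taken as a fixed list of 33 genes. The list was set by gene function, with no cut on a measured value, but was chosen with earlier results of these data known. All 33 genes were found among the 57992 genes of the Molm13 table and in the THP1 table. Molm13 and THP1 are human acute myeloid leukaemia (AML) lines of monocytic character. Each line carried Dox-inducible short hairpin RNA against PRMT9, an arginine methyltransferase (shPRMT9), or a control hairpin (shCtrl), and all samples, controls included, received the Dox induction. Every group held 2 libraries, so there were 8 in all. The genotype label is WT for shCtrl and PRMT9 knockdown for shPRMT9, and how long Dox was given before these RNA samples were taken is not given in the sources used here. The question was whether loss of PRMT9 changed transcript levels in each line. Only cultured leukaemia cells were sampled, and nothing in the labels says whether the 2 libraries of a group came from separate cultures, so the p-values measure the spread between these libraries. The shPRMT9 libraries are numbered shPRMT9-1 and shPRMT9-2, and the study's text uses the same names for hairpins, so the 2 libraries of a shPRMT9 group may carry different hairpins. They were read here as replicates, and the spread within a shPRMT9 group may therefore include a difference between hairpins. The bracketed library names of the THP1 samples carry the letters OCI, and they were analysed as THP1, which is how they are labelled.

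Complement is a cascade of plasma proteases and their receptors. The classical pathway starts when C1q binds antibody or dying cells, the lectin pathway starts from sugar-binding proteins with MASP proteases, and the alternative pathway runs on factor B, factor D and properdin. All of them converge on C3, whose fragments coat targets and signal through C3AR1, and on C5, which signals through C5AR1 and opens the terminal pore. Host cells protect themselves with the surface proteins CD46, CD55 and CD59. The liver makes most plasma complement, while monocytes and macrophages make C1q, properdin, C3 and the anaphylatoxin receptors.

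The libraries held 18720950 to 27356870 counts. PRMT9, the gene that was targeted, had 332 and 289 counts under shCtrl against 41 and 56 under shPRMT9 in Molm13 (log2 fold change -2.68, SE 0.14, FDR = 1.16e-21). The same gene had 317 and 352 counts under shCtrl against 60 and 68 under shPRMT9 in THP1 (log2 fold change -2.29, SE 0.13, FDR = 3.54e-14). It was therefore lower in all 4 shPRMT9 libraries than in every shCtrl library of its line. The myeloid genes LYZ, SPI1 and CEBPA were high in every library, whereas CD14, a monocyte receptor, had 4 to 8 counts in Molm13. In THP1 CD14 had 24 and 24 counts under shCtrl against 116 and 122 under shPRMT9, and was called higher (log2 fold change 2.40, FDR = 3.73e-10). A list of 10 monocytic genes summed to 1291 to 1298 CPM (counts scaled to a common library size) in shCtrl and 1898 to 1904 CPM in shPRMT9 Molm13 cells, and to 2631 to 2676 and 3933 to 4086 CPM in THP1 cells. LYZ, the lysozyme gene, held the largest part of these sums. The limits for a call are given below, and of all genes tested 11.4% were called higher and 11.3% lower in Molm13. The shares in THP1 were 3.83% and 2.39%. Of the 10 genes, 4 of the 9 tested in Molm13 were called higher and 0 lower, and 5 of 10 higher and 1 lower in THP1. MPO, the myeloperoxidase gene, went the other way, with a log2 fold change of -0.56 (FDR = 3.26e-13) in Molm13, under the fold limit, and -0.82 (FDR = 2.23e-05) in THP1, and FCGR1A fell by FDR in Molm13 (-0.44, FDR = 4.60e-04). A list of 12 tissue macrophage genes moved further, with Molm13 sums of 12.3 to 13.0 CPM (shCtrl) and 38.6 to 39.1 CPM (shPRMT9), and THP1 sums of 47.9 to 52.6 CPM and 306 to 339 CPM. Of these 12 genes, 2 of the 4 tested in Molm13 and 4 of the 8 tested in THP1 were called higher, against 11.4% and 3.83% of all genes. The counts of calls in the monocytic and macrophage lists are a description. GPNMB in both lines and CD14 in THP1 met the level limit given below in shPRMT9 libraries only. A few genes gave the largest part of the sums: SIGLEC1 in THP1 (616 and 610 counts under shCtrl against 5133 and 5847 under shPRMT9), and in Molm13 CD209 (213 and 184 against 361 and 383) and GPNMB (20 and 24 against 254 and 291). APOE and MSR1 did not pass in THP1 (log2 fold changes -0.14 and 0.30, FDR = 0.733 and 0.631) and were not tested in Molm13. The macrophage receptor LYVE1 was at 0 in all 8 libraries and MRC1 had at most 4 counts. The part of these marker changes in the complement results was not tested, and in bulk RNA fewer cells of a type and less RNA per cell cannot be told apart.

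Levels per length (RPKM, reads scaled by exon length and library size) put a few genes far above the rest. In each line 10 of the 33 genes passed 1 RPKM in at least 1 library, and 9 did so in both lines. These 9 were C3, CFD, C5, C1QBP, CD46, CD55, CD59, C3AR1 and CD93, with CFP passing in Molm13 alone and C5AR1 in THP1 alone. After the filter on low counts 11 genes were tested in Molm13 and 19 in THP1, and the 11 were among the 19. The 14 genes tested in neither line had at most 15 counts in any library. They were C1QB, C1QC, C1R, C1S, C4A, C4B, MASP2, FCN1, C6, C7, C8G, CFB, CR1 and CR2. Altogether 6 of the 33 genes, C6, C7, CR2, MASP1, C1QB and CFB, had 0 counts in all Molm13 libraries, where 3 counts correspond to 0.141 to 0.160 CPM. Every gene had at least 1 count somewhere in THP1.

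**Figure D1:**
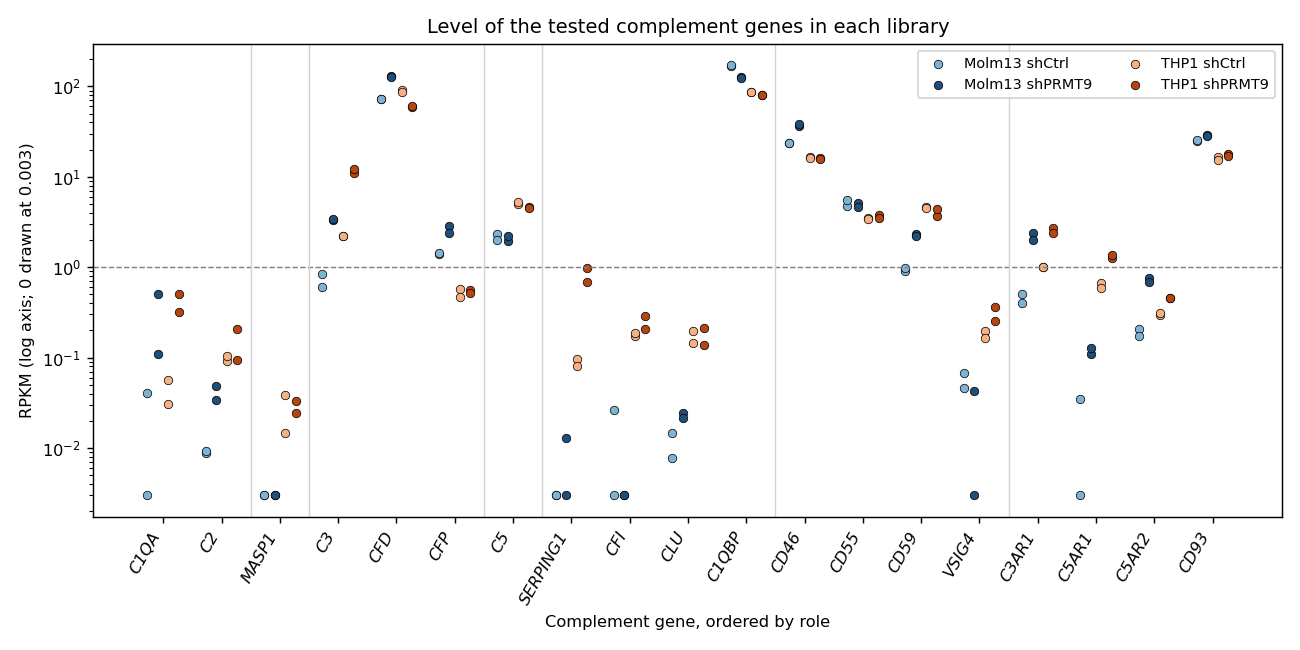
Level of each complement gene tested in at least 1 line, in RPKM on a log axis, with 1 point per library and vertical lines between roles. C1QBP and CFD lie highest in all 8 libraries, and the points of CFD rise from light to dark in Molm13 and fall in THP1.

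A gene was called differentially expressed (DEG) at a false discovery rate (FDR) below 0.05, a fold change above 1.5 and an RPKM above 1 in at least 1 library of the line. In Molm13, 6 of the 11 tested complement genes were called higher and 0 lower. Among all 16446 genes tested there, 11.4% were called higher and 11.3% lower. The median log2 fold change of the 11 genes was 0.82, against 0.00047 over all genes. By FDR alone 8 rose and 1 fell in Molm13, and the groups did not overlap for 9, against 66.9% of all genes by FDR and 81.9% of all genes without overlap. Each of these counts is 81.8% of the 11 genes, so the count without overlap stood at its background. The DEGs were 54.5% of the 11. In THP1, 3 of the 19 tested genes were called higher and 1 lower, which is 15.8% and 5.3%, against 3.83% and 2.39% of 16294 genes. By FDR alone 7 rose and 3 fell in THP1, against a background of 37.6%, and 14 showed no overlap, against 66.0%. The median log2 fold change was 0.13 in THP1, against -0.00063 over all genes. These counts and medians are a description, because some genes passed only through the group where they were high. C3, CD59 and C3AR1 in Molm13 and C5AR1 in THP1 were above 1 RPKM in shPRMT9 libraries only, and C1QA and SERPING1 in THP1 had under 10 counts in each shCtrl library.

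**Figure D2:**
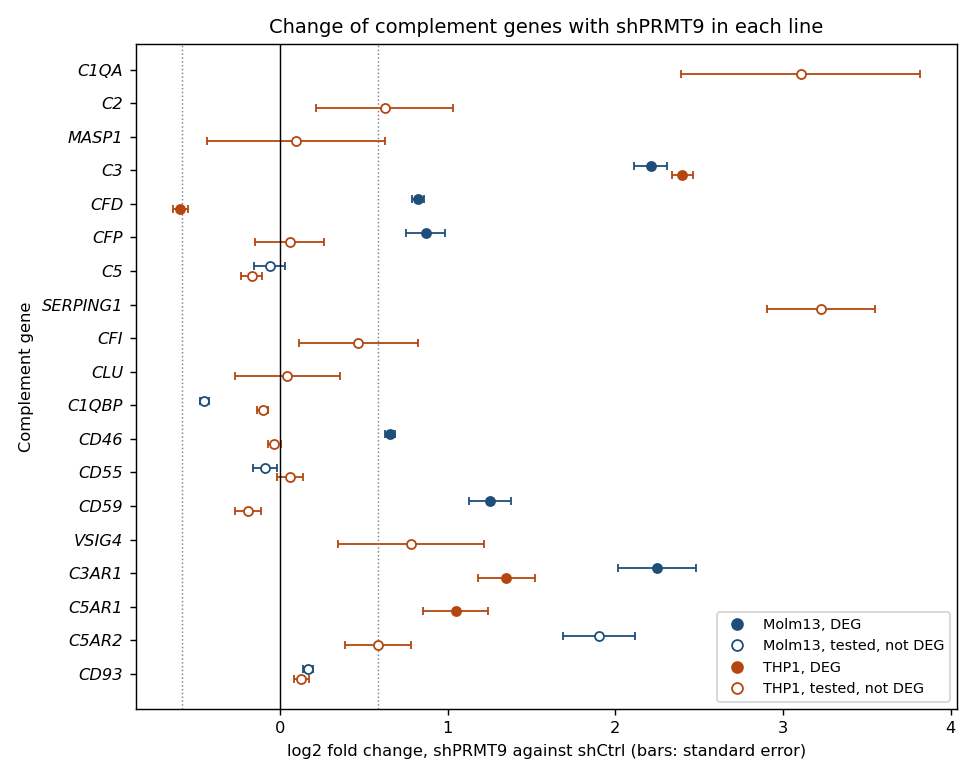
Log2 fold change of shPRMT9 against shCtrl for the complement genes tested, with 2 libraries a group. Bars are standard errors derived from the edgeR test, filled points are DEGs and dotted lines mark a fold change of 1.5. C3 and C3AR1 are filled on the right in both lines, and CFD is filled on opposite sides.

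C3 is the central protein of the cascade, and it rose in both lines. It had 142 and 99 counts under shCtrl against 516 and 601 under shPRMT9 in Molm13, and the groups did not overlap. This came to 0.721 ± 0.161 RPKM in shCtrl and 3.35 ± 0.0555 in shPRMT9 (SD, n = 2), a 4.63-fold rise (log2 fold change 2.21, SE 0.10, FDR = 1.23e-23). In THP1 there were 475 and 508 counts under shCtrl against 2323 and 2535 under shPRMT9, so all shPRMT9 libraries were again above all shCtrl libraries. The level went from 2.21 ± 0.0227 to 11.7 ± 0.836 RPKM, a 5.28-fold rise (log2 fold change 2.40, SE 0.0607, FDR = 2.00e-22). The difference between the 2 effects, THP1 minus Molm13 on the log2 scale, was 0.20 (SE 0.130, FDR = 0.225) and missed the threshold. Control THP1 cells held more C3 RNA than control Molm13 cells by a log2 difference of 1.61 (SE 0.104, FDR = 2.49e-26). The annotated C3 gene (chr19:6677704-6730562 on hg38, from GENCODE, as are the positions that follow) shares 649 bases with GPR108 on the same strand, and GPR108 had at most 1582 counts in Molm13.

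CFD (chr19:859643-863630) encodes factor D, the protease that cleaves factor B, and it moved in opposite directions in the 2 lines. Molm13 had 1791 and 1732 counts under shCtrl against 2953 and 3279 under shPRMT9. That was 72.0 ± 0.475 RPKM in shCtrl and 128 ± 2.19 in shPRMT9, a 1.77-fold rise (log2 fold change 0.82, SE 0.0360, FDR = 6.51e-24). THP1 had 2891 and 2982 counts under shCtrl against 1823 and 1825 under shPRMT9. Its level was 90.0 ± 3.23 RPKM in shCtrl and 59.6 ± 0.645 in shPRMT9, a 1.51-fold fall (log2 fold change -0.59, SE 0.0435, FDR = 7.07e-12). The groups did not overlap in either line, and the libraries of each group lay close together. The fall in THP1 stood at the edge of the fold limit: the log2 value was -0.56 without shCtrl library 1 and -0.58 without shPRMT9 library 1, both under 1.5-fold, with FDR = 4.42e-20 and 2.50e-27. The effects differed between the lines by -1.40 (SE 0.0565, FDR = 4.25e-39). The control lines themselves were closer, with a log2 difference of 0.32 (SE 0.0402, FDR = 8.57e-12), which is under 1.5-fold.

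CFP (chrX:47624213-47630305) encodes properdin, which stabilises the alternative pathway convertase. It had 131 and 129 counts under shCtrl against 242 and 233 under shPRMT9 in Molm13, a 1.83-fold rise (log2 fold change 0.87, SE 0.12, FDR = 9.28e-09) with no overlap. In THP1 there were 67 and 60 counts under shCtrl against 65 and 59 under shPRMT9, so the groups overlapped (log2 fold change 0.06, SE 0.21, FDR = 0.854). The effects differed between the lines by -0.80 (SE 0.231, FDR = 0.00264). CFP was lower in control THP1 than in control Molm13 cells, by a log2 difference of -1.45 (SE 0.163, FDR = 1.70e-13). CFB encodes factor B, the protease that forms part of that convertase, and had 0 counts in the 4 Molm13 libraries and at most 1 count in THP1. Transcripts of factor D were thus plentiful in libraries where those of its substrate were at or under the floor of 3 counts.

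**Figure D3:**
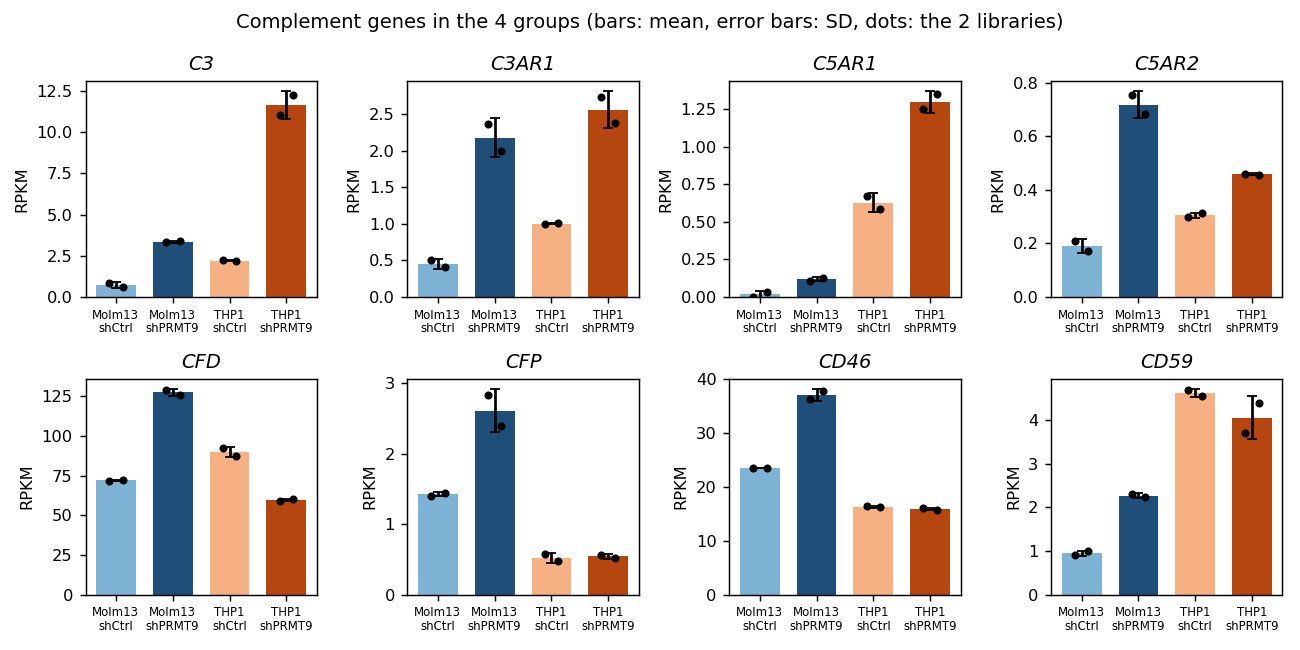
RPKM of 8 complement genes in the 4 groups, with bars for the mean, error bars for the SD and dots for the 2 libraries, each panel on its own axis from 0. C3, C3AR1 and C5AR2 are higher in shPRMT9 in both lines, CFD rises in Molm13 and falls in THP1, and CD46, CD59 and CFP are called higher in Molm13 and not in THP1.

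Of the anaphylatoxin receptors, C3AR1 was called higher in both lines and C5AR1 in THP1, and C5AR2 passed by FDR in both lines below the RPKM limit. C3AR1 (chr12:8058302-8066471) binds C3a and had 22 and 17 counts under shCtrl against 95 and 91 under shPRMT9 in Molm13, a 4.75-fold rise (log2 fold change 2.25, SE 0.23, FDR = 1.75e-11). It went from 0.453 ± 0.0686 to 2.18 ± 0.264 RPKM. THP1 had 55 and 60 counts under shCtrl against 148 and 127 under shPRMT9, a 2.55-fold rise (log2 fold change 1.35, SE 0.17, FDR = 2.26e-07). There the level went from 1.00 ± 0.00376 to 2.56 ± 0.251 RPKM. The effect on C3AR1 was smaller in THP1, with a log2 difference of -0.89 (SE 0.315, FDR = 0.0163), and this difference missed the threshold without Molm13 shCtrl library 2 (-0.78, FDR = 0.0927), without Molm13 shPRMT9 library 1 (-0.80, FDR = 0.0573) and by DESeq2 (-0.92, FDR = 0.0773). The 2 lines had closer C3AR1 levels under shPRMT9 than in the controls, where THP1 was higher by a log2 difference of 1.14 (SE 0.267, FDR = 7.36e-05).

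C5AR1 (chr19:47290023-47322066), the main signalling receptor for C5a, was tested in THP1 only. It had 51 and 48 counts under shCtrl against 93 and 99 under shPRMT9 there, a 2.07-fold rise (log2 fold change 1.05, SE 0.19, FDR = 6.52e-05). In Molm13 it had 0 and 2 counts under shCtrl against 6 and 8 under shPRMT9, too few for the filter, and the ratio of summed counts was 7.02 (95% exact interval 1.61 to 63.7, counting error only). C5AR2, the second C5a receptor, which does not couple to G proteins, had 29 and 23 counts under shCtrl against 96 and 99 under shPRMT9 in Molm13 (log2 fold change 1.90, SE 0.21, FDR = 1.28e-10). In THP1 there were 52 and 59 counts under shCtrl against 79 and 77 under shPRMT9 (log2 fold change 0.58, SE 0.20, FDR = 0.0188). C5AR2 stayed below 1 RPKM in all 8 libraries, so it was not a DEG, though it passed by FDR in both lines. The THP1 value lost that call when any of 3 libraries was left out (shCtrl library 1, FDR = 0.0691, shPRMT9 library 1, FDR = 0.0625, shPRMT9 library 2, FDR = 0.0533) and by DESeq2 (FDR = 0.161). The rise of C5AR2 was smaller in THP1, with a log2 difference of -1.31 (SE 0.306, FDR = 1.87e-04). C5AR1 and C5AR2 are neighbours on chromosome 19, within 57.3 kb.

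CD93, a surface protein once described as a C1q receptor of myeloid and endothelial cells, was the most abundant receptor gene. It had 3430 and 3367 counts under shCtrl against 3603 and 4034 under shPRMT9 in Molm13 and a fold change of 1.12 (log2 fold change 0.17, SE 0.0309, FDR = 6.38e-06). In THP1 it had 2834 and 2867 counts under shCtrl against 3008 and 2834 under shPRMT9 (log2 fold change 0.13, SE 0.0425, FDR = 0.0176). Both changes passed by FDR and lay far under the fold limit. The THP1 call was lost by DESeq2 (FDR = 0.0828), with library sizes alone (FDR = 0.0532) and without the filter on low counts (FDR = 0.0539). It was also lost without shCtrl library 2 (log2 value 0.08) or shPRMT9 library 1 (0.10). CR2, the receptor for C3d on B cells, had 0 counts in Molm13 and at most 1 in THP1.

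Promoter windows are shown for C3AR1, the one receptor gene of the 33 that was a DEG in both lines, and for 4 genes whose windows held a searched motif. The searched letters were GAAANNGAAA, the core of the interferon-stimulated response element (ISRE), and TTCNNNGAA, the gamma-activated site (GAS), on both strands, where N is any base, and each window is the 250 bases before a RefSeq start on GRCh38.p14. Of the 33 genes 24 had a window, 35 windows in all. C3, SERPING1, C1QC, C1S, C4A, C4B, C8G, CLU and CD93 had no window and were not searched. The ISRE letters were in 1 of the 35 windows and in 3.02% of all 35116 windows. The GAS letters were in 9 of the 35 windows and in 6.57% of all windows. Those 9 windows came from 7 genes (C1QA, C1R, MASP2, CFB, C7, CD59 and C5AR2). The C1QA windows with the letters overlap and hold the same site, and so do the CD59 windows with them. The 4 motif-bearing genes were chosen after the scan, as the tested genes C1QA, CD59 and C5AR2 and as CFB, the one gene with the ISRE letters. Capitals mark the matches, and each line runs 5′ to 3′ along the gene's strand.
C3AR1 (chr12:8066360-8066609, minus strand): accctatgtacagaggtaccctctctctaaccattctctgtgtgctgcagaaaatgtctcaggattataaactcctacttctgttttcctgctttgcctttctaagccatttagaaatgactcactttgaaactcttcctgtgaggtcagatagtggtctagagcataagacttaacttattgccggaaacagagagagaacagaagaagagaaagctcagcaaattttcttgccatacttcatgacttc
C5AR2 (chr19:47331925-47332174, plus strand): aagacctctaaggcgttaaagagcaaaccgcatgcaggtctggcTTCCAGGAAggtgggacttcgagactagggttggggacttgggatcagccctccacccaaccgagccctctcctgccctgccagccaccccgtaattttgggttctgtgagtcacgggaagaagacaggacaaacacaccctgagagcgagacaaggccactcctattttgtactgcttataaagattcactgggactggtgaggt
CD59 (chr11:33736480-33736729, minus strand): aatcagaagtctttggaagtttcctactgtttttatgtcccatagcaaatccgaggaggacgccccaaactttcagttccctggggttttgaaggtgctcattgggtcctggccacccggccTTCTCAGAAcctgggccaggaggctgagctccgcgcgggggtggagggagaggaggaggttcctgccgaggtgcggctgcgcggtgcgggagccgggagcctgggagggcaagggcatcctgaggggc
C1QA (chr1:22636213-22636462, plus strand): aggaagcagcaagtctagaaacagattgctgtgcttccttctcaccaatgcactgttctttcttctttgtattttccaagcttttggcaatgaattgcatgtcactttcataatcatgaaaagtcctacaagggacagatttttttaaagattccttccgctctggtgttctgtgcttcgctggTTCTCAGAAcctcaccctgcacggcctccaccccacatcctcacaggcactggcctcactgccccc
CFB (chr6:31945845-31946094, plus strand): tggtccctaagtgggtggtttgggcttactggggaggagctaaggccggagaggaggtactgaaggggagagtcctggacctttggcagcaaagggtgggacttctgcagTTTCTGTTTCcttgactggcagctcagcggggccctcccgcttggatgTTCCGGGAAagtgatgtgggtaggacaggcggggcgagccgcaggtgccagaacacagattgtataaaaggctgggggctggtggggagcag
The C3AR1 window held neither set of letters. CFB held the ISRE letters 140 bases before its start and the GAS letters 92 bases before it, and had at most 1 count in any library. C5AR2 and C1QA, with the GAS letters 206 and 66 bases before the start in the windows shown, had higher counts in shPRMT9 in both lines. The other C5AR2 window held neither set of letters, and the C1QA site lay 231 bases before its other start. CD59 has the GAS letters 128 bases before the start shown and 184 bases before another, and was called higher in Molm13 alone. The remaining CD59 windows held neither set of letters. C1R, MASP2 and C7, which also held the GAS letters, were tested in neither line. A match is a description of letters and not a bound site, and a link between the letters and the changes was not tested.

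Membrane regulators keep complement from damaging the cell that carries them. In Molm13 2 of the 3 genes tested were called higher, against 11.4% of all genes, and in THP1 0 of 4, against 3.83%. These counts are too small to be more than a description. CD46 (chr1:207752057-207795513), the cofactor for cleavage of C3b and C4b, had 4178 and 4020 counts under shCtrl against 5919 and 7030 under shPRMT9 in Molm13. It went from 23.5 ± 0.0711 to 37.1 ± 1.13 RPKM, a 1.58-fold rise (log2 fold change 0.66, SE 0.0284, FDR = 3.96e-24). In THP1 it had 3674 and 3928 counts under shCtrl against 3537 and 3422 under shPRMT9 (log2 fold change -0.03, SE 0.0370, FDR = 0.532). The effects on CD46 differed by -0.68 (SE 0.0468, FDR = 1.62e-23). CD59 (chr11:33698261-33736445) blocks the terminal pore and had 92 and 96 counts under shCtrl against 213 and 235 under shPRMT9 in Molm13, a 2.38-fold rise (log2 fold change 1.25, SE 0.12, FDR = 3.76e-12). In THP1 it had 593 and 626 counts under shCtrl against 461 and 540 under shPRMT9, with lower values in both shPRMT9 libraries that missed the threshold (log2 fold change -0.19, SE 0.0796, FDR = 0.0626). Without shPRMT9 library 2 that THP1 value was -0.32 with FDR = 0.00265, and with library sizes alone it was -0.22 with FDR = 0.0321. CD59 effects differed between the lines by -1.43 (SE 0.151, FDR = 5.47e-14).

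The control lines were far apart in CD59, with THP1 higher by a log2 difference of 2.28 (SE 0.109, FDR = 2.46e-35). Under shPRMT9 the means were 2.27 ± 0.0493 RPKM in Molm13 and 4.05 ± 0.492 RPKM in THP1. CD55, which speeds the decay of convertases, had 541 and 609 counts under shCtrl against 533 and 547 under shPRMT9 in Molm13 (log2 fold change -0.09, SE 0.0726, FDR = 0.277) and 504 and 532 counts under shCtrl against 531 and 482 under shPRMT9 in THP1 (log2 fold change 0.06, SE 0.0764, FDR = 0.576). CD55 thus passed in neither line, although in Molm13 it passed without shCtrl library 1 (-0.21, FDR = 0.0152) and changed sign without shCtrl library 2 (0.03). CD46, CD55, CR1 and CR2 lie within 474.0 kb of chromosome 1. Of these 4 neighbours CR1, the C3b and C4b receptor, had at most 2 counts in Molm13 and 14 in THP1. VSIG4, the C3b receptor of tissue macrophages, had 11 and 10 counts under shCtrl against 14 and 20 under shPRMT9 in THP1 (log2 fold change 0.78, SE 0.44, FDR = 0.170) and at most 3 counts in Molm13.

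The initiating proteins of the classical and lectin pathways were near the floor in both lines. None of the 11 genes in these pathways passed 1 RPKM, 0 were tested in Molm13 and 3 in THP1. The 3 C1q chains, which assemble into one recognition protein, lie side by side on chromosome 1 within 25.0 kb. C1QA had 1 and 2 counts under shCtrl against 16 and 10 under shPRMT9 in THP1 (log2 fold change 3.10, SE 0.71, FDR = 8.77e-04). Its ratio of summed counts was 9.08 (95% exact interval 2.78 to 46.9). C1QB had 0 and 1 counts under shCtrl against 7 and 5 under shPRMT9 in THP1, a ratio of 12.6 (1.86 to 538). C1QC had 1 and 3 counts under shCtrl against 6 and 14 under shPRMT9 in THP1, a ratio of 5.24 (1.76 to 21.1). The groups did not overlap for any of the 3 chains in THP1, at counts from 0 to 16, and 66.0% of all genes tested in THP1 showed no overlap in either direction. In Molm13, C1QA had 0 and 1 counts under shCtrl against 12 and 3 under shPRMT9, while C1QB was at 0 and C1QC had at most 1 count. These intervals cover counting error only. Macrophages make C1q, and the sums of the macrophage list given above were higher in shPRMT9 in both lines. C1QB and C1QC did not rise in Molm13, and a link between that list and the C1q counts was not tested.

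C2, the protease of the classical and lectin convertase, had 13 and 16 counts under shCtrl against 29 and 13 under shPRMT9 in THP1 (log2 fold change 0.62, SE 0.41, FDR = 0.253). In Molm13 it had 1 and 1 counts under shCtrl against 5 and 4 under shPRMT9, a ratio of 4.51 (0.93 to 42.9) whose interval includes no change. MASP1 had 5 and 14 counts under shCtrl against 11 and 8 under shPRMT9 in THP1 (log2 fold change 0.10, SE 0.53, FDR = 0.909) and 0 counts in Molm13. C1R and C1S, the C1 proteases, had at most 11 counts in any library. C1R overlaps C1RL and C1S overlaps LPCAT3 in the annotation, and both of those neighbours had far more counts. C4A, C4B, MASP2 and FCN1 had at most 5 counts, and reads of the near-identical C4A and C4B cannot be assigned with certainty.

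Of the terminal components only C5 was expressed above 1 RPKM. C5 had 308 and 258 counts under shCtrl against 237 and 306 under shPRMT9 in Molm13 (log2 fold change -0.06, SE 0.0937, FDR = 0.586), with overlapping groups. THP1 had 838 and 955 counts under shCtrl against 759 and 735 under shPRMT9, a small fall (log2 fold change -0.17, SE 0.0625, FDR = 0.0353). That fall missed the threshold by DESeq2 (FDR = 0.188) and without the filter on low counts (FDR = 0.0541). It also missed it without shCtrl library 2, shPRMT9 library 1 or shPRMT9 library 2 (log2 values from -0.18 to -0.13). The effects on C5 did not pass as different between lines (log2 difference -0.09, SE 0.117, FDR = 0.575), whereas control THP1 held more C5 RNA by a log2 difference of 1.25 (SE 0.0788, FDR = 6.39e-27). C6 and C7 had 0 counts in Molm13 and at most 5 in THP1. C8G, a chain of the C8 complex, had 0 and 4 counts under shCtrl against 14 and 1 under shPRMT9 in Molm13, where 1 library held most of them. In THP1 C8G had 6 and 15 counts under shCtrl against 8 and 6 under shPRMT9, and the groups overlapped. The difference between its effects in the lines missed the threshold, and passed without Molm13 shCtrl library 2 (FDR = 0.0124), Molm13 shPRMT9 library 2 (FDR = 0.00598) or THP1 shCtrl library 1 (FDR = 0.0310).

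Among the soluble regulators and the C1q-binding protein, C1QBP held the most RNA. C1QBP is a mitochondrial protein that also binds the globular heads of C1q, and it had 8125 and 7790 counts under shCtrl against 5523 and 6120 under shPRMT9 in Molm13. Its level was 170.3 ± 0.0868 RPKM in shCtrl and 125 ± 2.33 in shPRMT9 (log2 fold change -0.45, SE 0.0262, FDR = 1.62e-19), a 1.37-fold fall under the fold limit. The annotated gene overlaps DHX33 over 7919 bases on the same strand. In THP1 C1QBP had 5205 and 5588 counts under shCtrl against 4716 and 4699 under shPRMT9, a fall of 1.07-fold (log2 fold change -0.10, SE 0.0341, FDR = 0.0184). That fall missed the threshold by DESeq2 (FDR = 0.0671). It also missed it without shCtrl library 1, shCtrl library 2 or shPRMT9 library 1 (log2 values from -0.11 to -0.09). The fall was larger in Molm13, the difference between the effects being 0.36 (SE 0.0427, FDR = 5.50e-12). SERPING1 encodes the C1 inhibitor, and it had 9 and 8 counts under shCtrl against 63 and 88 under shPRMT9 in THP1, a 9.36-fold rise (log2 fold change 3.23, SE 0.32, FDR = 4.01e-09). The highest SERPING1 level was 0.983 RPKM, so it was not a DEG, and Molm13 had 1 count in 1 library. CFI, the protease that inactivates C3b, had 17 and 20 counts under shCtrl against 20 and 28 under shPRMT9 in THP1 (log2 fold change 0.47, SE 0.35, FDR = 0.328). CLU, which encodes clusterin, had 33 and 27 counts under shCtrl against 23 and 35 under shPRMT9 in THP1 (log2 fold change 0.04, SE 0.31, FDR = 0.929). In Molm13 CFI had at most 2 counts and CLU at most 3.

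Because a few genes hold most of the RNA, the make-up of the summed RPKM of the 33 genes was set out by library. C1QBP took 56.1% to 56.5% of it in control Molm13 libraries and 36.9% to 37.1% in shPRMT9 libraries. CFD took 23.8% in both control Molm13 libraries and 37.8% to 37.9% in shPRMT9 libraries. In THP1 the share of CFD went from 39.0% to 39.9% in controls to 29.0% to 29.1% in shPRMT9, while C1QBP stayed between 37.6% and 39.2%. C3 took 0.961% to 0.976% in control THP1 libraries and 5.42% to 5.93% in shPRMT9 libraries. The sum itself was 302 to 304 RPKM in control and 333 to 340.5 RPKM in shPRMT9 Molm13 cells, and 225 to 231 and 204 to 207 RPKM in THP1 cells.

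**Figure D4:**
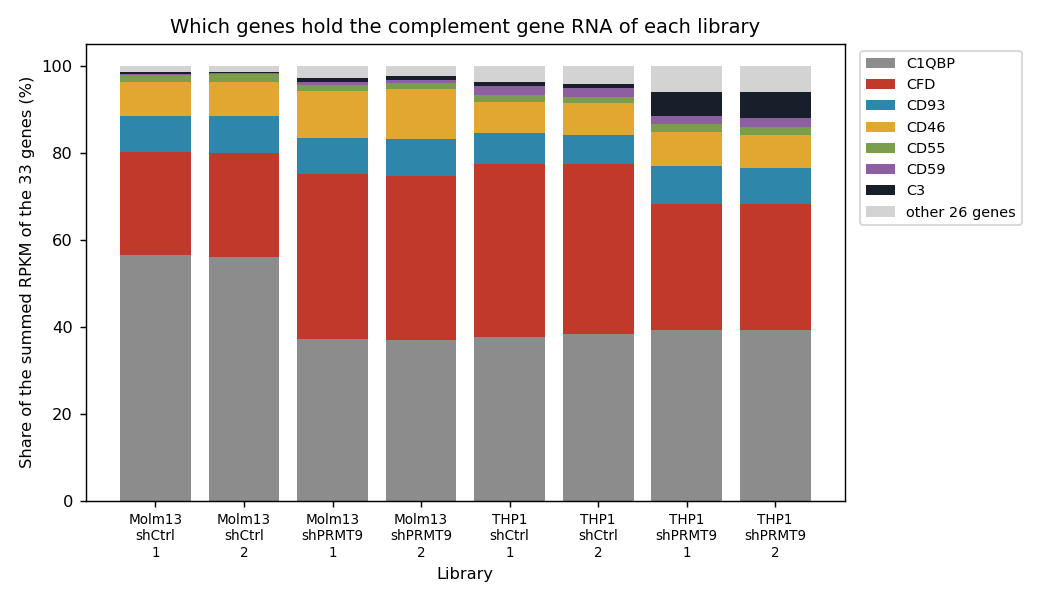
Share of the summed RPKM of the 33 complement genes held by the named genes, in percent, with 1 bar per library. C1QBP narrows and CFD widens in the Molm13 shPRMT9 bars, and C3 widens to 5.42% to 5.93% in the THP1 shPRMT9 bars while CFD narrows.

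Over all 20 complement genes in the fit of the 8 libraries, the shPRMT9 effect differed between the lines for 7. It was higher in THP1 for C1QBP and lower in THP1 for 6 (CFD, CFP, CD46, CD59, C3AR1 and C5AR2). Among all 19288 genes of that fit, 22.8% had a higher and 19.4% a lower effect in THP1. Between the control lines 16 of the 20 genes were called at an FDR below 0.05 and a fold above 1.5, 13 higher in THP1 and 3 lower, against 28.4% and 31.1% of all genes. The lower ones were CFP, C1QBP (log2 difference -0.97, SE 0.0298, FDR = 4.36e-50) and CD93 (log2 difference -0.67, SE 0.0367, FDR = 6.89e-31). Of the 13 higher ones, 7 had at most 3 counts in each Molm13 control library (C2, MASP1, SERPING1, CFI, CLU, VSIG4 and C5AR1), for which the counts above stand in place of a fold. Those 7 passed the low-count filter only through THP1 libraries and could only be called higher in THP1. The counts of 16 and 13 are therefore a description. With more than 3 counts in a Molm13 control library, 6 were higher and 3 lower in THP1. The other 6 were C3, C5, CD59, C3AR1, C5AR2 and C8G, of which C5AR2 missed the threshold without Molm13 shCtrl library 2 (0.56, FDR = 0.0894) and by DESeq2 (0.68, FDR = 0.0535). C8G missed it without Molm13 shCtrl library 1 (FDR = 0.341), without THP1 shCtrl library 2 (FDR = 0.309) and by DESeq2 (FDR = 0.278). The lines were deposited as separate tables, so line and handling cannot be told apart.

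A further 31 complement genes outside the 33 were listed for context, of which 7 were tested in Molm13 and 10 in THP1. In Molm13 5 of the 7 were called higher and 0 lower, and in THP1 5 of the 10 were higher and 0 lower, against the 11.4% (Molm13) and 3.83% (THP1) of all tested genes that were called higher. These counts are a description, because some genes passed 1 RPKM in shPRMT9 libraries only. Mean RPKM went from 0.657 to 2.56 for ITGAX in Molm13 and from 0.636 to 1.41 for PTX3 in THP1. ITGAM and ITGAX pair with ITGB2 to form receptors for the C3b fragment iC3b, and ITGAM is also 1 of the 10 monocytic genes summed above. ITGAM had 630 and 574 counts in shCtrl and 2172 and 2486 in shPRMT9 in Molm13 (log2 fold change 1.95, FDR = 4.22e-33) and 603 and 626 counts in shCtrl and 1308 and 1247 in shPRMT9 in THP1 (log2 fold change 1.15, FDR = 5.35e-15). The log2 fold change of ITGAX was 1.97 (Molm13) or 1.29 (THP1), and that of ITGB2 was 1.29 or 0.86. PTX3, a pattern-recognition protein that binds C1q, rose by 1.52 in Molm13 and 1.15 in THP1 on that scale. C1RL, a homologue of C1R, was called higher in Molm13 (1.00) and had a log2 fold change of 0.16 (FDR = 0.424) in THP1, and the difference between the lines was not tested for it. THBD, which encodes thrombomodulin, was called higher in THP1 (0.60), with a log2 fold change of -0.27 in Molm13 that passed by FDR but lay under the fold limit. In both lines C3, its receptor C3AR1 and the 3 integrin genes ITGAM, ITGAX and ITGB2 were called higher in shPRMT9. Of the receptors VSIG4, CR1 and CR2 among the 33 genes, VSIG4 was tested in THP1 alone and was not called there. CR1 and CR2 had too few counts to be tested in either line.

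Markers of other cell types were read from the same libraries. The 10 hepatocyte genes listed summed to 0.66 to 0.68 CPM in control and 1.46 to 1.82 CPM in shPRMT9 Molm13 cells, and to 3.71 to 4.17 and 5.75 to 6.16 CPM in THP1 cells. FGB and CYP3A4 were at 0 in all 8 libraries, and ALB had at most 1 count in Molm13 and 20 in THP1. A list of 8 B cell genes summed to 103 to 106 CPM in control and 116 to 124 CPM in shPRMT9 Molm13 cells, and to 21.3 to 22.9 and 22.5 to 25.2 CPM in THP1 cells, with MS4A1 at most 1 count. PAX5 and BANK1 carried most of the sum and moved in opposite directions in THP1, PAX5 called higher (log2 fold change 2.03) and BANK1 lower (-0.79). A list of 8 T and NK cell genes summed to 219 to 221 CPM in control and 226 to 229 CPM in shPRMT9 Molm13 cells, and to 182.9 to 188 and 168 CPM in THP1 cells, mostly from NCAM1. CD3D had at most 3 counts, and NKG7, a cytotoxic granule gene, was called higher in both lines (log2 fold changes 0.77 for Molm13, 0.84 for THP1). A list of 8 erythroid and megakaryocytic genes summed to at most 1.08 CPM. The part of these lists in the complement results was not tested.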

How the data were processed

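PolyA RNA libraries of Molm13 and THP1 cells (Kapa mRNA HyperPrep, Illumina HiSeq) were summarised by the authors as raw counts per gene, 1 table per line. The submitters' processing notes name hg38, TopHat2 2.0.8, HTSeq 0.11.2 and edgeR 3.30.3. The annotation, strand and overlap settings are not given in the sources used here. The deposited counts and exon lengths were used here unchanged. Library totals were 18720950 to 27356870 counts, so a floor of 3 counts is 0.110 to 0.160 CPM (counting error only). Gene positions are from GENCODE v29 (hg38).

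Counts were tested in edgeR 4.0.16 (R 4.3.3) with its quasi-likelihood test after TMM scaling and filterByExpr, per line, and over all 8 libraries for the difference between lines. FDR is the Benjamini-Hochberg adjusted p over all genes tested (16446, 16294 and 19288). SE is the size of the log2 value divided by the square root of the F value of that test. It therefore draws on a spread shared across genes. RPKM used total counts with TMM factors. DESeq2 1.42.0, other scalings, filters and limits, and leaving out each library were the alternatives. The fits were tested on simulated counts. Replicates differed by more than sampling noise in every group (chi-square per gene 1.35 to 2.17), so they were not read as 1 library sequenced again. This check cannot show whether they came from separate cultures. The common biological coefficient of variation, the fitted spread between libraries beyond counting error, was 0.0201 in Molm13 and 0.0247 in THP1. The very small FDR values rest on that narrow spread. The members, lists and rules were chosen with earlier results of these data known. The naming rule took every member, ordered by role, with full statistics for DEGs, and of the further complement genes only DEGs. Promoter sequences were copied from RefSeq (GRCh38.p14). C1QA, C5AR2, CD59 and CFB promoters, and the values of single low-count genes, were added to that rule after values were seen.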

Additional observations from a re-analysis of the deposited data

Results flagged for a closer look

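The shPRMT9 effect differed between the lines by a test of the difference itself for 7 complement genes, all given as the log2 effect in THP1 minus that in Molm13 (edgeR, 2 libraries a group). CFD differed by -1.40 (SE 0.0565, FDR = 4.25e-39). The effect on CFP differed by -0.80 (SE 0.231, FDR = 0.00264). For C1QBP, which fell in both lines, the difference was 0.36 (SE 0.0427, FDR = 5.50e-12). CD46 differed by -0.68 (SE 0.0468, FDR = 1.62e-23). CD59, with a rise in Molm13 and no called change in THP1, differed by -1.43 (SE 0.151, FDR = 5.47e-14). C3AR1 rose in both lines and differed by -0.89 (SE 0.315, FDR = 0.0163). The smaller rise of C5AR2 in THP1 gave -1.31 (SE 0.306, FDR = 1.87e-04). Such differences were common across all genes, 22.8% higher and 19.4% lower in THP1. C3AR1 is the one of the 7 whose call depended on single libraries or on the tool. The 2-library groups are too small for a search for single outlying samples.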

How the results depend on the processing

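The calls of C3, CFD, CFP, CD46, CD59 and C3AR1 in Molm13, and of C3, CFD, C3AR1 and C5AR1 in THP1, kept their direction and side of the FDR threshold under every alternative run. Of 607 recomputed values over 54 results, 562 kept direction and side, 26 no longer passed, 7 newly passed and 12 changed sign. Above 2-fold, 3 genes were higher in Molm13 and 0 lower in THP1 (against 6 and 1). By FDR alone, 1 was lower in Molm13, 7 were higher and 3 lower in THP1, and without the RPKM minimum 5 were higher in THP1 (against 0, 3, 1 and 3), since low-level or small changes then count. Leaving out 1 library gave 0 to 1 lower in THP1, with CFD lost without shCtrl library 1 or shPRMT9 library 1. Leave-one-out ranges that cross 0 were, for log2 fold changes in Molm13, -0.15 to 0.0351 (C5) and -0.21 to 0.0307 (CD55), and in THP1, -0.0508 to 1.08 (C2), -0.41 to 0.94 (MASP1), -0.0794 to 0.20 (CFP) and -0.30 to 0.33 (CLU). For the difference between lines they were -0.0814 to 0.37 (C3) and -6.67 to 0.51 (C8G). The cause was not tested. In the fit with a replicate block, 6 genes were higher and 0 lower in Molm13, 3 higher and 1 lower in THP1, 7 differed between the lines and 16 between the controls, as without it. CD59 in THP1 then passed (-0.19, FDR = 0.0458). Libraries sharing a replicate number deviated together with correlations of -0.08 in Molm13 and -0.01 in THP1 (2 pairs each), so the numbers were not read as pairs. A group left with 1 library was assumed to vary like the other groups. At these counts 22 of the 33 genes were not tested in Molm13 and 14 in THP1.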
